A study of Homo sapiens with 3 samples.

Results

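Most of the 51 genes described here code for the proton pump of the lysosome, its membrane proteins, its proteases and a set of its other enzymes. The set also holds the transcription factors TFEB and TFE3 and the antisense gene ATP6V0E2-AS1. The 51 genes come from 18856 genes listed in at least 1 of the 3 libraries. They were taken by name: every listed symbol that starts with ATP6V (22 genes), LAMP1 to LAMP3 (3 genes), every cathepsin symbol of the form CTS followed by a letter (13 genes), and 13 further named lysosomal genes. The rule uses names alone and no measured value, but the members were chosen with earlier results of these data known. The study compared LIEA (Low-Input, Equal-Amplification), in which fragmented mRNA is ligated to adapters, reverse-transcribed, amplified by 18 PCR cycles and read on an Ion Torrent sequencer, with Smart-seq2, in which full-length cDNA is made from an oligo-dT primer by template switching, amplified by 18 cycles and read on an Illumina sequencer. The HBE LIEA library and the HBE Smart-seq2 library were both made from the HBE cell line, which grew from human bronchial epithelium, and the A549 LIEA library from the cell line A549 of a human lung adenocarcinoma of alveolar origin. Each input was 10 pg polyA+ mRNA, diluted from bulk mRNA, and the labels name no treatment. Each group held 1 library, so that no difference below has a replicate check and no test was run. Because the RNA came from whole cultures, fewer expressing cells and less RNA per cell cannot be told apart.

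Lysosomes are acidified by the V-ATPase, in which the cytosolic V1 sector hydrolyses ATP and turns a rotor that drives protons through the membrane-embedded V0 sector. At this acidic pH the cathepsins, which are aspartic, serine or cysteine proteases, and the glycosidases and their activators degrade proteins, glycans and lipids, while LAMP proteins line the inner face of the membrane. TFEB and TFE3 are transcription factors of the MiT family that bind E-box letters in the promoters of many of these genes, and in airway epithelium the system serves autophagy, receptor turnover and the defence against inhaled particles.

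The promoter letters are shown first because the family is known for a shared E-box. Of the 51 genes, 34 had a promoter window of 300 bases in RefSeq (GRCh38.p14), from 250 bases before the start of the gene to 50 after it. The letters CACGTG, the core of the E-box, were found in at least 1 window of 12 of the 34 genes (35.3%) and of 8.77% of the 27305 gene symbols with a window, or 11.6% of those listed in these libraries. The longer TCACGTG, searched on both strands and always holding a CACGTG, was found for 11 of 34 genes (32.4%) and 4.49% of all symbols, or 6.40% of the listed ones. The 10-letter palindrome in which TCACGTG has a G before it and AC after it was found for ATP6V1G1, GAA and MCOLN1, or 8.82% against 0.421% of all symbols. A match is a description of the window and does not show that a factor binds there.

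The stretches below end at the last base before the start of the gene and are written from 5′ to 3′ on the strand of the gene. Capitals mark each CACGTG, together with a T directly before it or an A directly after it, where present, which make TCACGTG on either strand. LAMP1 (chr13:113297039-113297238, plus strand) is shown because it held 5 of the letters in 200 bases. GAA (chr17:80101481-80101580, plus strand), MCOLN1 (chr19:7522524-7522623, plus strand) and ATP6V0B (chr1:43974860-43974959, plus strand) held 2 each and stand for the enzymes, the channel and the proton pump. CTSD (chr11:1763928-1764027, minus strand) was the most abundant cathepsin in every library, and CTSF (chr11:66568607-66568756, minus strand) had the largest difference between the cell lines. CTSL (chr9:87726019-87726118, plus strand) and CTSZ (chr20:59007255-59007354, minus strand), which held none of the letters in the whole window, are shown for their large differences between cell lines and between methods, respectively.
LAMP1: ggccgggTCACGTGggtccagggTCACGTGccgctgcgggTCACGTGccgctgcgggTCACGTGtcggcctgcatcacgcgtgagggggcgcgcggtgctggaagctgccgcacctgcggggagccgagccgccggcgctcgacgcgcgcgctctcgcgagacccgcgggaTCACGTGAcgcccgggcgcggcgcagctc
GAA: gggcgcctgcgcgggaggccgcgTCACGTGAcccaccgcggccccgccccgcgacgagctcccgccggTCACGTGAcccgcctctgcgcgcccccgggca
MCOLN1: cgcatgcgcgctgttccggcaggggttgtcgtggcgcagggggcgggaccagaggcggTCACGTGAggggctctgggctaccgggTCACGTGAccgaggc
ATP6V0B: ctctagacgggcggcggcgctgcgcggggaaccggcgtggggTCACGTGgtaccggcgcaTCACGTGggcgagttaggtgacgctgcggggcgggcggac
CTSD: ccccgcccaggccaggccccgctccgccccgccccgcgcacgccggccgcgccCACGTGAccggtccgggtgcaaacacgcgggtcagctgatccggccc
CTSF: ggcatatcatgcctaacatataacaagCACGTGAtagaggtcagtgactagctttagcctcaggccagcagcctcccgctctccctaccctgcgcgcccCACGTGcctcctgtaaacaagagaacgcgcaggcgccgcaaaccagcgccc
CTSL: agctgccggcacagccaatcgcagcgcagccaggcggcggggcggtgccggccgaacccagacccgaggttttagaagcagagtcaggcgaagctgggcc
CTSZ: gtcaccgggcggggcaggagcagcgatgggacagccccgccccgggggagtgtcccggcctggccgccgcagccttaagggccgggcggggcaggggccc

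Genes with and without these letters overlapped widely in their difference between the cell lines. The 11 genes with TCACGTG had a median log2 difference of A549 LIEA minus HBE LIEA of -0.11, with a range from -1.33 (LAMP1) to 8.12 (CTSF). The 21 genes whose window lacked it and that had enough reads had a median of 0.05 and a range from -2.53 (CTSH) to 3.30 (CTSL). By role, TCACGTG was found for 1 of 7 V1 genes with a window, 3 of 7 V0 genes, 3 of 8 cathepsins, 3 of 10 other lysosomal genes and LAMP1.

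The 3 libraries held 4605855 (HBE LIEA), 4154060 (A549 LIEA) and 9845150 (HBE Smart-seq2) mapped reads, which were worked out from the deposited values, as was the number of reads of each gene. The 51 genes took 0.501% of the mapped reads in HBE LIEA, 0.748% in A549 LIEA and 0.611% in HBE Smart-seq2. All 51 were listed in HBE LIEA, 50 in A549 LIEA, where ATP6V0D2 was not, and 50 in HBE Smart-seq2, where CTSW was not. With the study's criterion of at least 10 reads, 40, 44 and 42 of them were quantified, respectively. Marker genes of several cell types were looked at in the 3 libraries. The 6 basal airway markers (KRT5, KRT6A, KRT14, KRT17, TP63, DSG3) summed to 1723 rpkM in HBE LIEA, 6497 in HBE Smart-seq2 and 9.42 in A549 LIEA, where KRT14 was not listed. The 4 simple-epithelium markers (KRT8, KRT18, KRT19, EPCAM) summed to 1643, 3386 and 8511 rpkM in the same order, a sum that rests on KRT8 and KRT18, whereas EPCAM had 226 reads in HBE LIEA and 26 in A549 LIEA. Of the 5 alveolar type II markers, SFTPA1 and SFTPC were not listed in any library, SFTPB had 20 to 49 reads in each, NAPSA had 7 reads in A549 LIEA alone, and LAMP3 is described below. Of 8 macrophage markers, CD163, MRC1, C1QA, C1QB and MARCO were not listed in any library and PTPRC had at most 3 reads. CSF1R had 10 and 12 reads in the HBE libraries and none in A549 LIEA, while CD14 had 180 reads in A549 LIEA, 62 in HBE LIEA and 52 in HBE Smart-seq2. Of 3 endothelial markers, CDH5 had 206 reads in HBE LIEA, 360 in HBE Smart-seq2 and none in A549 LIEA. PECAM1 had 20, 91 and 9 reads in the same order, and VWF had 18 in HBE LIEA alone. Of 5 fibroblast markers, COL1A1 had 175, 85 and 93 reads in that order, and the others at most 5 in any library. The part of these markers in the results was not tested.

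**Figure D1:**
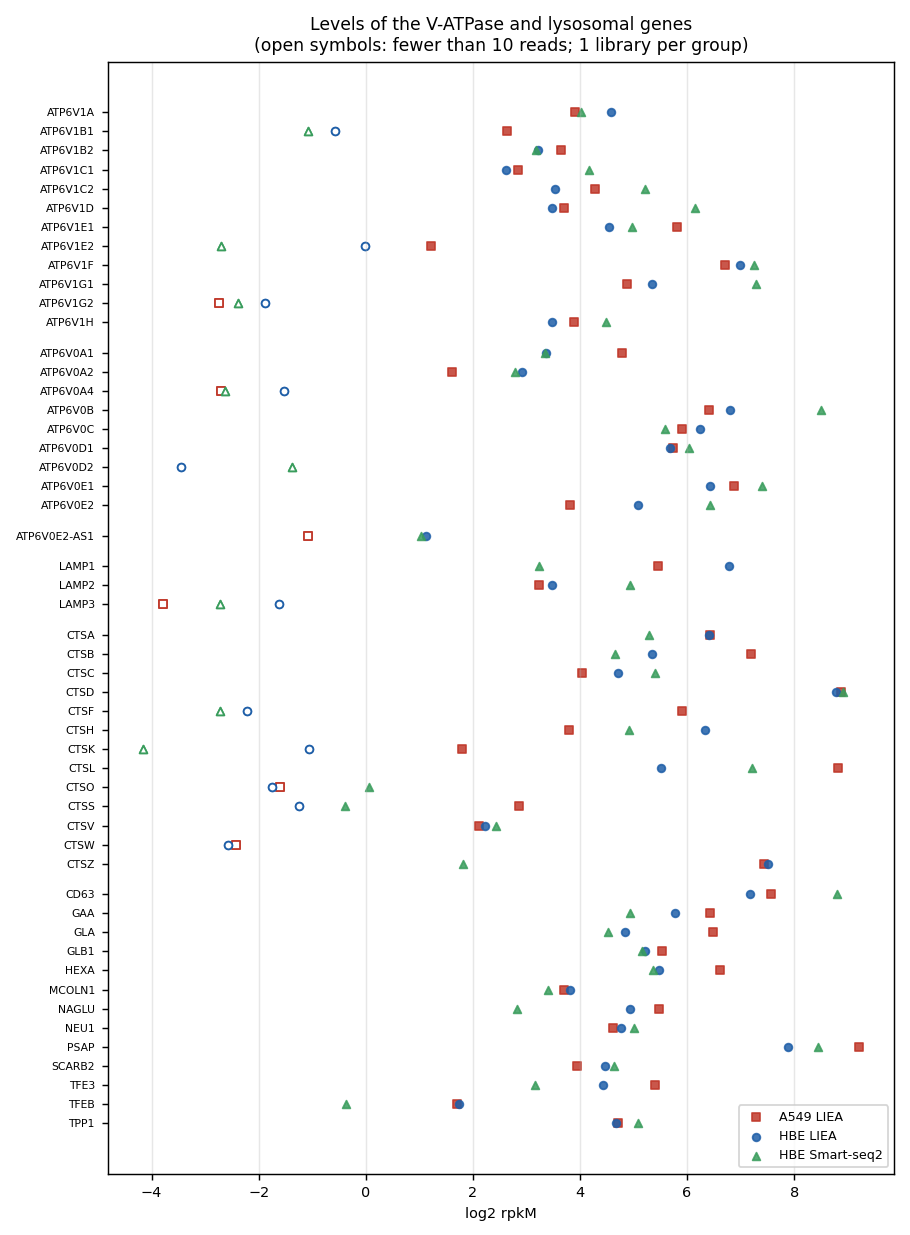
Levels of the 51 genes in log2 rpkM (horizontal axis), grouped by role, for A549 LIEA (red squares), HBE LIEA (blue circles) and HBE Smart-seq2 (green triangles); open symbols stand for fewer than 10 reads. CTSD lay between 8.79 and 8.91 in the 3 libraries, whereas CTSF lay at 5.91 in A549 LIEA and below -2 in both HBE libraries.

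In rpkM, which is reads scaled to transcript length and to the mapped reads of the library, the 51 genes summed to 2365 in HBE LIEA, 3394 in A549 LIEA and 3123 in HBE Smart-seq2. A few genes carried much of this. CTSD, the main aspartic protease of lysosomes, led in both HBE libraries with 442 rpkM (LIEA, rank 117 of all genes) and 480 rpkM (Smart-seq2, rank 122). PSAP, the precursor of the saposins that present lipids to hydrolases, led in A549 LIEA with 590 rpkM (rank 102), followed by CTSD with 468 and CTSL with 449. The next in HBE LIEA were PSAP (236), CTSZ (183), the tetraspanin CD63 (145) and ATP6V1F (126), a subunit of the central stalk of the pump. In HBE Smart-seq2 they were CD63 (447), ATP6V0B (361), PSAP (347) and ATP6V0E1 (170). CD63 (190) and CTSZ (174) completed the first 5 in A549 LIEA.

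At the other end, ATP6V1G2, ATP6V0A4, ATP6V0D2, LAMP3 and CTSW had fewer than 10 reads in every library. These are the forms of the pump known from neurons (ATP6V1G2), kidney (ATP6V0A4) and osteoclasts (ATP6V0D2), a LAMP of dendritic cells and alveolar type II cells, and the cathepsin of cytotoxic lymphocytes. LAMP3 had 5 reads in HBE LIEA, 1 in A549 LIEA and 5 in HBE Smart-seq2. ATP6V0D2 had 1 read in HBE LIEA and 9 in HBE Smart-seq2, and CTSW had 1 read in each LIEA library. For a gene that is not listed, 3 reads are the limit that a count of 0 allows, which is 0.722 RPM of mapped reads in A549 LIEA and 0.305 in HBE Smart-seq2. No difference between libraries is given for these 5 genes.

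The cell lines were compared by LIEA, the method common to both. A gene was counted when it had at least 20 reads over both libraries, and was called higher or lower when its rpkM differed by 2-fold or more. Of the 45 genes with enough reads, 12 were called higher in A549 (26.7%), against 18.6% of all 12972 genes with enough reads, and 5 were called lower (11.1%), against 20.3%. The other 28 lay within 2-fold. CTSF, CTSS, ATP6V1B1 and CTSK reached the minimum of reads through A549, so their call as higher followed largely from passing it. ATP6V0E2-AS1, called lower, reached it through HBE LIEA. With at least 200 reads over both libraries, 8 of 37 genes were called higher and 4 lower. The shares of all genes at this minimum are not given here, so these 2 counts cannot be set against them. The median log2 difference was 0.21 over the 45 genes and -0.14 over all genes. Over the 5812 genes with at least 100 reads in both libraries the median was -0.17, and relative to that shift TFE3 joined the genes called higher. Intervals below are exact 95% intervals for the counting of reads. PCR reads without molecular identifiers are not independent molecules, so the intervals cover counting error only and would be wider for replicate libraries.

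**Figure D2:**
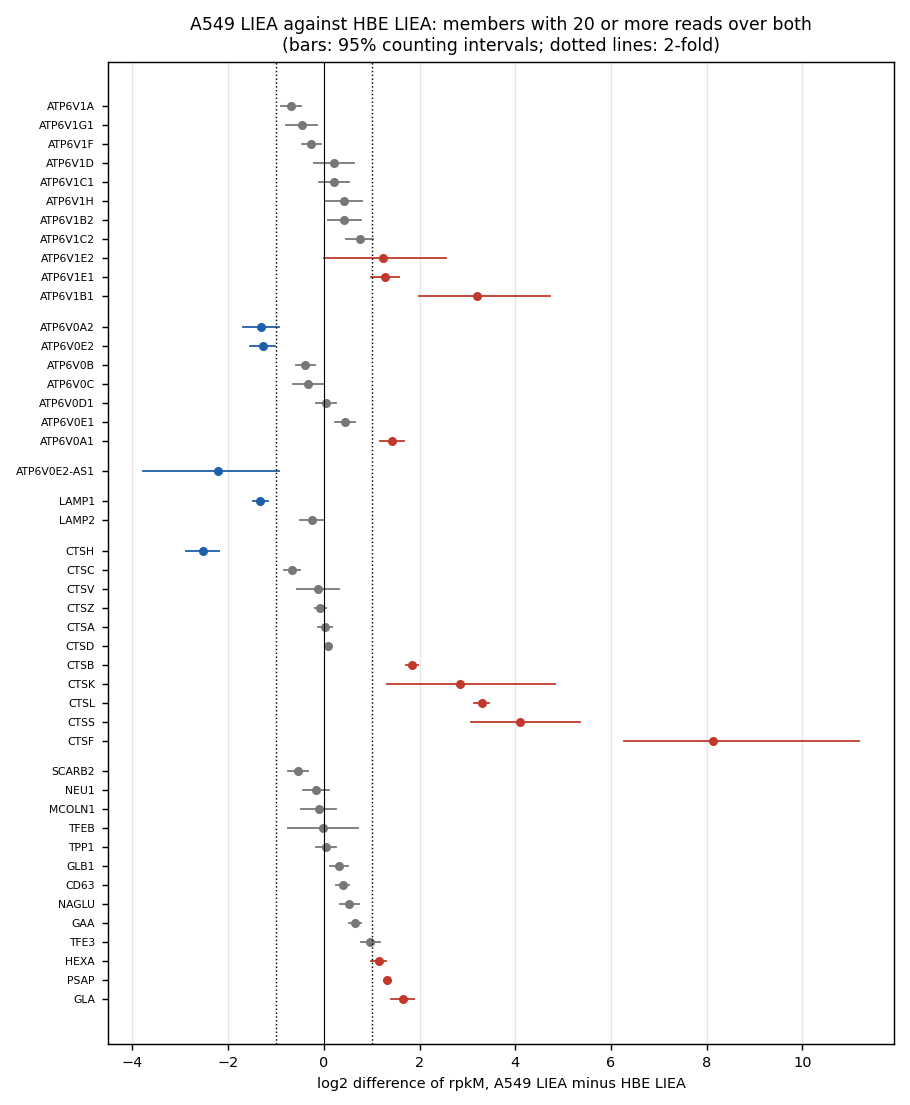
Log2 difference of rpkM, A549 LIEA minus HBE LIEA (horizontal axis), for the 45 genes with at least 20 reads over both libraries, grouped by role; bars are 95% counting intervals, dotted lines mark 2-fold, and red, blue and grey stand for higher, lower and within 2-fold. CTSF, CTSS and CTSL lay farthest to the right and CTSH farthest to the left.

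Cathepsins held the largest differences. Of the 11 with enough reads, CTSB, CTSF, CTSK, CTSL and CTSS were called higher in A549 (45.5%), against 18.6% of all genes. Of these, CTSF, CTSK and CTSS reached the minimum of reads through A549, so their calls followed largely from passing it. CTSH was called lower (9.09%), against 20.3%, and 5 lay within 2-fold. The median of the 11 was 0.08, and -0.08 when rpkM was rescaled to the same sum in each library (TPM), so it had no direction that held. The median of all genes was -0.14 and -0.30 in the same order. The 13 cathepsins together summed to 909 rpkM in HBE LIEA, 1430 in A549 LIEA and 775 in HBE Smart-seq2.

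CTSF (chr11:66330935-66336350, GRCh37, minus strand), a cysteine cathepsin with a cystatin-like domain in its propeptide, stood at log2 rpkM 5.91 in A549 LIEA (503 reads), -2.21 in HBE LIEA (2 reads) and -2.72 in HBE Smart-seq2 (3 reads). Both HBE libraries were close to the limit of detection, and A549 was far above them. The log2 difference of A549 LIEA minus HBE LIEA was 8.12, a ratio of 279, with a counting interval from 6.26 to 11.17. Its rank among all genes was 1128 in A549 LIEA. Its promoter stretch above holds CACGTG in 2 places, of which the one farther from the start makes TCACGTG on the opposite strand.

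CTSL (chr9:90338966-90346384, GRCh37, plus strand), an endopeptidase of broad specificity that is also secreted, stood at 8.81 in A549 LIEA (3198 reads), 5.52 in HBE LIEA (361 reads) and 7.21 in HBE Smart-seq2 (2493 reads). A549 was highest, but the HBE libraries differed from each other as well. The log2 difference between the cell lines by LIEA was 3.30 (3.14 to 3.46), or 9.82-fold, while HBE LIEA lay 1.69 below HBE Smart-seq2 on the log2 scale. Within a library, CTSD exceeded CTSL by a log2 ratio of 3.27 in HBE LIEA and 1.70 in HBE Smart-seq2. In A549 LIEA the ratio was 0.06 (-0.01 to 0.13), so that CTSD and CTSL were not distinguishable there from counting error. CTSL accounted for 31.4% of the summed cathepsin rpkM in A549 LIEA, 5.03% in HBE LIEA and 19.1% in HBE Smart-seq2.

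CTSS (chr1:150702555-150738433, GRCh37, minus strand), known from the processing of the invariant chain in antigen-presenting cells, had 124 reads in A549 LIEA (log2 rpkM 2.86), 8 in HBE LIEA (-1.24) and 31 in HBE Smart-seq2 (-0.38). A549 was above both HBE libraries, by 4.10 (3.08 to 5.35) within LIEA. CTSK (chr1:150767356-150782053, GRCh37, minus strand), the collagen-degrading cathepsin of osteoclasts, had 26 reads in A549 LIEA (1.79), 4 in HBE LIEA (-1.06) and 1 in HBE Smart-seq2 (-4.16). Its difference of 2.85 had a wide interval, from 1.32 to 4.83, and it passed the minimum of reads through A549. The osteoclast markers beside it were low, with ACP5 at 4 to 10 reads in the 3 libraries and OCSTAMP not listed in any.

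CTSB (chr8:11700033-11727042, GRCh37, minus strand), an abundant cysteine protease with endopeptidase and carboxypeptidase activity, stood at 7.19 in A549 LIEA (2393 reads), 5.35 in HBE LIEA (742 reads) and 4.65 in HBE Smart-seq2 (976 reads). Both HBE libraries were below A549, by 1.84 (1.72 to 1.96) within LIEA. CTSH (chr15:79213400-79241916, GRCh37, minus strand), an aminopeptidase that takes part in surfactant protein processing in alveolar type II cells, had the opposite order, with 3.80 in A549 LIEA (86 reads), 6.33 in HBE LIEA (550 reads) and 4.91 in HBE Smart-seq2 (441 reads). The log2 difference was -2.53 (-2.87 to -2.20). CTSH exceeded CTSB by a log2 ratio of 0.98 in HBE LIEA and 0.26 in HBE Smart-seq2, and lay 10.5-fold below it in A549 LIEA, where the log2 ratio was -3.39 (-3.72 to -3.08).

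CTSD (chr11:1773982-1785803, GRCh37, minus strand) differed little between any libraries, with log2 rpkM 8.87 in A549 LIEA (4128 reads), 8.79 in HBE LIEA (4321 reads) and 8.91 in HBE Smart-seq2 (10033 reads). The difference between the cell lines of 0.08 was small in size and became -0.08 under TPM. The other cathepsins within 2-fold between the cell lines were CTSA, the serine carboxypeptidase that protects GLB1 and NEU1, at 0.02, CTSZ at -0.07, CTSV at -0.13 and the dipeptidyl peptidase CTSC at -0.67. CTSO had 4 reads in each LIEA library and no difference is given for it.

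**Figure D3:**
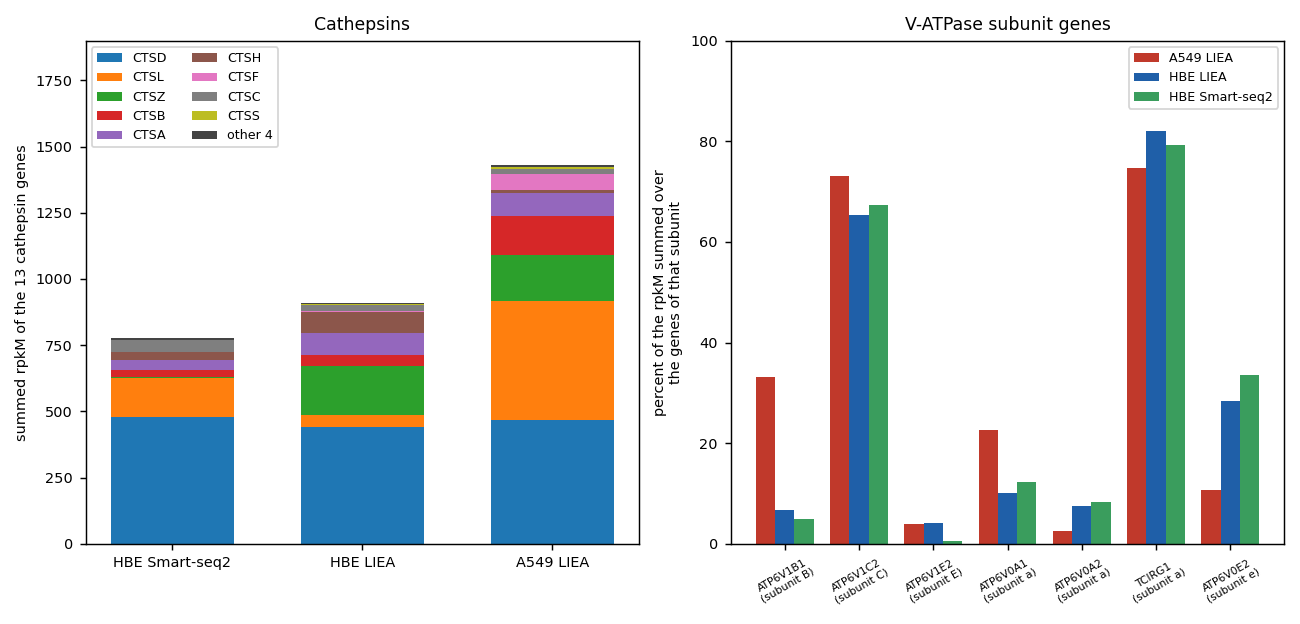
Left, summed rpkM of the 13 cathepsins (vertical axis, from 0) in each library, stacked by gene, with CTSK, CTSO, CTSV and CTSW as the other 4; right, the percent of rpkM that a gene contributes to all genes of its pump subunit. CTSL and CTSF widened in A549 LIEA, CTSZ was almost absent from HBE Smart-seq2, and the share of ATP6V1B1 was 33.1% in A549 LIEA against 6.71% and 4.92% in the HBE libraries.

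In the V1 sector, 3 of 11 genes with enough reads were called higher in A549 (27.3%), against 18.6% of all genes. None was called lower, against 20.3%. The median log2 difference was 0.42, which was 0.26 under TPM and 0.58 after centring. The 3 called higher were ATP6V1B1, ATP6V1E1 and ATP6V1E2. ATP6V1B1 reached the minimum of reads through A549, so its call followed largely from passing it. ATP6V1E2 reached it only by adding its 19 reads in A549 LIEA to its 9 in HBE LIEA. The summed rpkM of the 12 V1 genes was 282 in A549 LIEA and 266 in HBE LIEA. ATP6V1B1 (chr2:71163030-71192561, GRCh37, plus strand), the B subunit known from the intercalated cells of the kidney and from the inner ear, had 50 reads in A549 LIEA (log2 rpkM 2.63), 6 in HBE LIEA (-0.57) and 9 in HBE Smart-seq2 (-1.08). A549 was above both HBE libraries, by 3.21 (1.99 to 4.72) within LIEA. Of the intercalated cell markers, FOXI1 was not listed in any library, SLC4A1 had 9 reads in A549 LIEA and 13 in HBE LIEA, and SLC26A4 had 60 and 55. The widespread form ATP6V1B2 stayed the more abundant, at 2.03-fold over ATP6V1B1 in A549 LIEA, 13.9-fold in HBE LIEA and 19.3-fold in HBE Smart-seq2.

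ATP6V1E1 (chr22:18074902-18111515, GRCh37, minus strand), the main form of the E subunit in the peripheral stalks, stood at 5.81 in A549 LIEA (328 reads), 4.53 in HBE LIEA (150 reads) and 4.97 in HBE Smart-seq2 (435 reads). The difference between the cell lines was 1.28 (0.99 to 1.57) by LIEA, but A549 LIEA was less than 2-fold above HBE Smart-seq2. ATP6V1E2 (chr2:46717889-46769716, GRCh37, minus strand), the testis form, had 19 reads in A549 LIEA (1.21), 9 in HBE LIEA (-0.02) and 3 in HBE Smart-seq2 (-2.70). Its difference of 1.23 had an interval from 0.01 to 2.55 and was 0.74 on the log2(rpkM + 1) scale, so that its call rests on few reads. It contributed 3.95% of the E-subunit rpkM in A549 LIEA and 4.09% in HBE LIEA. The other 8 V1 genes lay between -0.68 (ATP6V1A, the catalytic subunit) and 0.75 (ATP6V1C2). ATP6V1C2, the less widespread C subunit, exceeded ATP6V1C1 in all 3 libraries and held 73.2% of the C-subunit rpkM in A549 LIEA, 65.3% in HBE LIEA and 67.4% in HBE Smart-seq2.

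In the V0 sector, 1 of 7 genes with enough reads was called higher in A549 (14.3%), against 18.6% of all genes. Called lower were 2 (28.6%), against 20.3%. The genes called were alternative forms of the a and e subunits, and each was listed in every library. ATP6V0A1 (chr17:40610862-40674600, GRCh37, plus strand), a form of the large a subunit, stood at 4.78 in A549 LIEA (474 reads), 3.36 in HBE LIEA (196 reads) and 3.34 in HBE Smart-seq2 (414 reads). The HBE libraries differed by 0.02 and A549 lay above both, by 1.42 (1.18 to 1.67) within LIEA. ATP6V0A2 (chr12:124196900-124246302, GRCh37, plus strand), the form of the Golgi whose loss causes a cutis laxa, went the other way, with 1.61 in A549 LIEA (83 reads), 2.93 in HBE LIEA (229 reads) and 2.79 in HBE Smart-seq2 (444 reads). Its difference between the cell lines was -1.32 (-1.70 to -0.95). ATP6V0A1 thus exceeded ATP6V0A2 by 9.02-fold in A549 LIEA, 1.35-fold in HBE LIEA and 1.47-fold in HBE Smart-seq2.

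TCIRG1, the a-subunit form of lysosomes and osteoclasts, which does not carry the ATP6V prefix and is no member, was the most abundant a-subunit gene in every library. It held 82.1% of the a-subunit rpkM in HBE LIEA, 74.8% in A549 LIEA and 79.2% in HBE Smart-seq2. ATP6V0A1 held 10.1%, 22.6% and 12.3% in the same order, and ATP6V0A2 held 7.47%, 2.50% and 8.34%.

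ATP6V0E2 (chr7:149570057-149588293, GRCh37, plus strand), a form of the small membrane subunit e, stood at 3.81 in A549 LIEA (163 reads), 5.09 in HBE LIEA (438 reads) and 6.42 in HBE Smart-seq2 (2361 reads). A549 was below both HBE libraries, by a log2 difference of -1.28 (-1.55 to -1.01) within LIEA. The widespread form ATP6V0E1 differed by 0.45, so that ATP6V0E2 made up 10.7% of the e-subunit rpkM in A549 LIEA, 28.4% in HBE LIEA and 33.5% in HBE Smart-seq2. The antisense gene ATP6V0E2-AS1 (chr7:149564786-149577699, GRCh37, minus strand) had 6 reads in A549 LIEA (-1.09), 31 in HBE LIEA (1.13) and 62 in HBE Smart-seq2 (1.04). It was also lower in A549, by -2.22 (-3.77 to -0.94), but its gene span, introns included, overlaps that of ATP6V0E2 over 7643 bases (chr7:149570057-149577699). Whether the counting used the strand is not given in the sources used here, and the overlap of the transcripts was not worked out. Whether the 2 genes share reads therefore cannot be told. The remaining V0 genes with enough reads, ATP6V0B, ATP6V0C, ATP6V0D1 and ATP6V0E1, lay between -0.39 and 0.45.

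LAMP1 (chr13:113951554-113977987, GRCh37, plus strand), an abundant glycoprotein of the lysosomal membrane, stood at 5.45 in A549 LIEA (462 reads), 6.78 in HBE LIEA (1285 reads) and 3.23 in HBE Smart-seq2 (234 reads). By LIEA it was lower in A549, by -1.33 (-1.48 to -1.17), but A549 LIEA was above HBE Smart-seq2. The relation of A549 to HBE for this gene therefore depended on which HBE library it was set against. LAMP2 (chrX:119560003-119603220, GRCh37, minus strand), which also serves chaperone-mediated autophagy, differed by -0.25 (-0.49 to -0.02) between the cell lines.

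Of the 13 other lysosomal genes, GLA, HEXA and PSAP were called higher in A549 (23.1%), near the 18.6% of all genes. None was called lower, against 20.3%. The median log2 difference was 0.40, which was 0.24 under TPM and 0.56 after centring. PSAP (chr10:73576055-73611008, GRCh37, minus strand) stood at 9.20 in A549 LIEA (6936 reads), 7.88 in HBE LIEA (3075 reads) and 8.44 in HBE Smart-seq2 (9658 reads), a difference of 1.32 (1.26 to 1.38) by LIEA. It was highest in A549, but less than 2-fold above HBE Smart-seq2. GLA (chrX:100648261-100663000, GRCh37, minus strand), the alpha-galactosidase that is deficient in Fabry disease, stood at 6.48 (527 reads), 4.84 (187 reads) and 4.52 (321 reads) in the same order. It was above both HBE libraries, by 1.64 (1.40 to 1.89) within LIEA. HEXA (chr15:72633265-72668761, GRCh37, minus strand), the beta-hexosaminidase subunit of Tay-Sachs disease, stood at 6.61 (991 reads), 5.47 (497 reads) and 5.36 (983 reads). It was above both HBE libraries, with a difference of 1.14 (0.99 to 1.30) within LIEA that was 0.99 under TPM and so no longer reached 2-fold.

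The transcription factors of the set differed from each other in level more than between the cell lines. TFE3 (chrX:48886237-48900936, GRCh37, minus strand) stood at 5.40 in A549 LIEA (606 reads), 4.43 in HBE LIEA (343 reads) and 3.17 in HBE Smart-seq2 (305 reads). Its difference between the cell lines was 0.97 (0.78 to 1.17), just under 2-fold, and 1.14 after centring. TFEB (chr6:41651716-41703997, GRCh37, minus strand) stood at 1.71 (32 reads), 1.73 (36 reads) and -0.36 (18 reads) and differed by -0.02 (-0.75 to 0.71) between the cell lines. TFE3 exceeded TFEB 12.9-fold in A549 LIEA, 6.50-fold in HBE LIEA and 11.6-fold in HBE Smart-seq2. The other genes of this group lay between -0.53 (SCARB2, the receptor that carries glucocerebrosidase to lysosomes) and 0.65 (GAA, the acid alpha-glucosidase of Pompe disease). Between these were the sialidase NEU1 at -0.16, the calcium channel MCOLN1 at -0.11, the peptidase TPP1 at 0.05, the beta-galactosidase GLB1 at 0.31, CD63 at 0.40 and the heparan sulfate enzyme NAGLU at 0.54.

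HBE Smart-seq2 gave a second view of HBE, made by another method. Of the 45 genes with enough reads between the cell lines, 10 were 2-fold or more higher in A549 LIEA than in both HBE libraries (22.2%), against 15.1% of all genes. They were ATP6V1B1, ATP6V1E2, ATP6V0A1, CTSB, CTSF, CTSK, CTSL, CTSS, GLA and HEXA. Of these, CTSF, CTSS, ATP6V1B1 and CTSK reached the minimum of reads against HBE LIEA through A549. ATP6V0A2, ATP6V0E2, ATP6V0E2-AS1 and CTSH, or 8.89%, were 2-fold or more lower than in both, against 12.5% of all genes. ATP6V1E1 and PSAP were called against HBE LIEA alone. LAMP1, at 43.8 rpkM in A549 LIEA, lay more than 2-fold from both HBE libraries but in opposite directions, below the 109.8 rpkM of HBE LIEA and above the 9.36 rpkM of HBE Smart-seq2. Both comparisons share the A549 LIEA library.

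The library methods were compared on HBE mRNA, and this comparison shares the HBE LIEA library with that of the cell lines. Of 42 genes with enough reads, 7 were called higher in HBE LIEA than in HBE Smart-seq2 (16.7%), against 28.1% of all 12857 genes, and 11 were called lower (26.2%), against 21.6%. The other 24 lay within 2-fold. The median log2 difference of HBE LIEA minus HBE Smart-seq2 was -0.18 over the 42 genes and 0.05 over all genes. Under TPM it was 0.01 over the 42 genes and 0.25 over all genes. The median was 0.11 over the 6655 genes with at least 100 reads in both libraries. Relative to that shift ATP6V0E1 joined the genes called lower, and under TPM ATP6V1H left them and GAA joined those called higher.

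**Figure D4:**
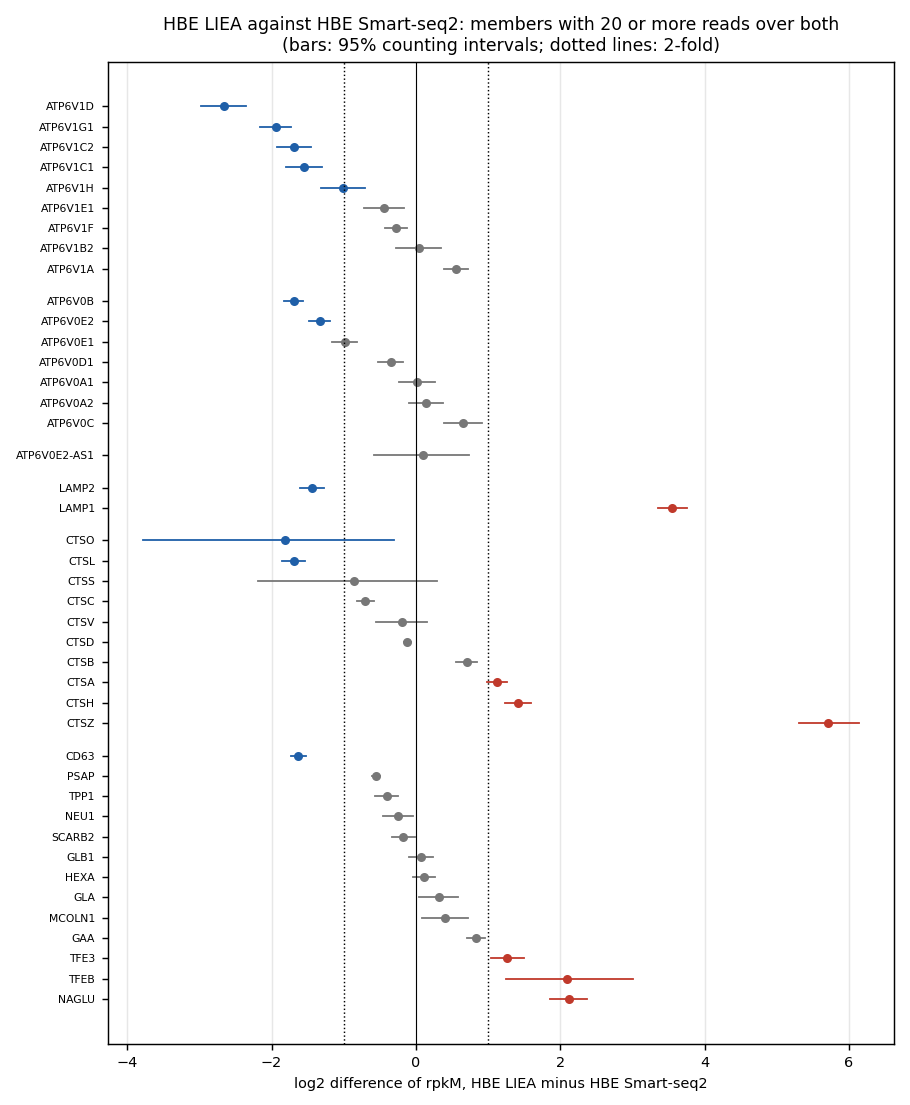
Log2 difference of rpkM, HBE LIEA minus HBE Smart-seq2 (horizontal axis), for the 42 genes with at least 20 reads over both libraries, grouped by role; bars are 95% counting intervals, dotted lines mark 2-fold, and red, blue and grey stand for higher, lower and within 2-fold. CTSZ (5.70) and LAMP1 (3.55) lay farthest to the right, and 5 of the 9 V1 genes lay to the left of the 2-fold line.

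CTSZ (chr20:57560741-57583293, GRCh37, minus strand), a carboxypeptidase also called cathepsin X, showed the largest method difference of the set. It had 1267 reads in HBE LIEA (log2 rpkM 7.52), 1085 in A549 LIEA (7.44) and 52 in HBE Smart-seq2 (1.82). The 2 LIEA libraries were alike and Smart-seq2 stood apart, 52.1-fold lower than HBE LIEA, with a log2 difference of 5.70 (5.30 to 6.13). CTSZ made up 20.2% of the cathepsin rpkM in HBE LIEA, 12.2% in A549 LIEA and 0.454% in HBE Smart-seq2. LAMP1 was next, with a log2 difference of 3.55 (3.35 to 3.76), or 11.7-fold. As LAMP2 went the other way, at -1.44 (-1.61 to -1.28) with 340 and 1976 reads, the order of the pair was reversed between the methods. LAMP1 exceeded LAMP2 9.80-fold in HBE LIEA and 4.66-fold in A549 LIEA, and was 3.26-fold below LAMP2 in HBE Smart-seq2.

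The other genes called higher in LIEA were NAGLU, TFEB, CTSH, TFE3 and CTSA. NAGLU (chr17:40688259-40696467, GRCh37, plus strand) had 391 reads in HBE LIEA (4.93), 511 in A549 LIEA (5.47) and 193 in HBE Smart-seq2 (2.82), a difference of 2.11 (1.86 to 2.37) between the methods. TFEB differed by 2.10, with a lower bound of 1.24, CTSH by 1.41 (1.23 to 1.60), TFE3 by 1.27 (1.04 to 1.49) and CTSA by 1.12 (0.99 to 1.26). CTSA (chr20:44518783-44527588, GRCh37, plus strand) stood at 6.41 in HBE LIEA, 6.43 in A549 LIEA and 5.28 in HBE Smart-seq2.

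Genes of the V1 sector leaned towards Smart-seq2. Of the 9 V1 genes with enough reads, 5 were called lower in HBE LIEA (55.6%), against 21.6% of all genes. None was called higher, against 28.1%. The median log2 difference was -1.01, which was -0.81 under TPM and -1.12 after centring. ATP6V1D (chr14:67761088-67826982, GRCh37, minus strand), a subunit of the central stalk, had 93 reads in HBE LIEA (3.48), 97 in A549 LIEA (3.69) and 1254 in HBE Smart-seq2 (6.14), a difference of -2.66 (-2.98 to -2.35). ATP6V1G1 (chr9:117349986-117361195, GRCh37, plus strand), of the peripheral stalks, had 202 reads (5.35), 132 reads (4.89) and 1658 reads (7.29) in the same order, a difference of -1.94 (-2.16 to -1.73). Both were low in the 2 LIEA libraries and high in Smart-seq2. The C subunits ATP6V1C2 and ATP6V1C1 followed at -1.68 and -1.55, and the regulatory subunit ATP6V1H at -1.01 (-1.32 to -0.71). ATP6V1A at 0.56 was the highest of the sector.

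In the V0 sector ATP6V0B (chr1:44440159-44443967, GRCh37, plus strand), a subunit of the proton-carrying ring, had 526 reads in HBE LIEA (6.80), 363 in A549 LIEA (6.42) and 3636 in HBE Smart-seq2 (8.50), a difference of -1.69 (-1.83 to -1.56). ATP6V0E2 differed by -1.33 (-1.48 to -1.19), and ATP6V0E1, at -0.99, lay just within 2-fold. ATP6V0C, which forms most of the ring, lay at 0.65, the highest of the sector. The summed rpkM of the 9 V0 genes was 377 in HBE LIEA, 360 in A549 LIEA and 748 in HBE Smart-seq2, and that of the 12 V1 genes 266, 282 and 516. Among the remaining genes, CD63 (chr12:56119107-56123491, GRCh37, minus strand) was lower in LIEA by -1.63 (-1.74 to -1.52), with 824 reads in HBE LIEA (7.18), 979 in A549 LIEA (7.57) and 5451 in HBE Smart-seq2 (8.80). CTSL differed by -1.69 (-1.86 to -1.53). CTSO (chr4:156842732-156875064, GRCh37, minus strand), a little studied cysteine cathepsin, had 4 reads in each LIEA library (-1.76 in HBE and -1.61 in A549) and 30 in HBE Smart-seq2 (0.06), and its difference of -1.81 had an interval from -3.78 to -0.31 and was -0.65 on the log2(rpkM + 1) scale.

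The GC content of the transcript moved with the method difference. The genes called higher in LIEA had a median GC content of 58.2% (7 genes) and those called lower 45.0% (11 genes). ATP6V1D at 41.5%, ATP6V1G1 at 45.0% and LAMP2 at 36.0% were among the latter, and NAGLU at 64.0%, TFEB at 63.2% and CTSZ at 58.2% among the former. ATP6V0E2 at 62.3% and ATP6V0B at 58.2% were called lower all the same. Across the 42 genes Spearman's rho of GC content with the log2 difference was 0.55, and across 12536 genes with enough reads and a GC value it was 0.38. For transcript length the rho was 0.07 across the 42 genes and 0.27 across the 12536 genes. These describe genes that share 2 libraries and are not independent replicates. In GC bins of all genes, the median log2 difference was -0.35 from 40 to 45% and 0.61 from 55 to 60%, so that CTSZ and LAMP1 (55.2%) lay above the upper quartile of their bin of 1.66. For the difference between the cell lines the rho of GC content across the 45 genes was -0.01. The part of GC content and of transcript length in the method differences was not tested.

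**Figure D5:**
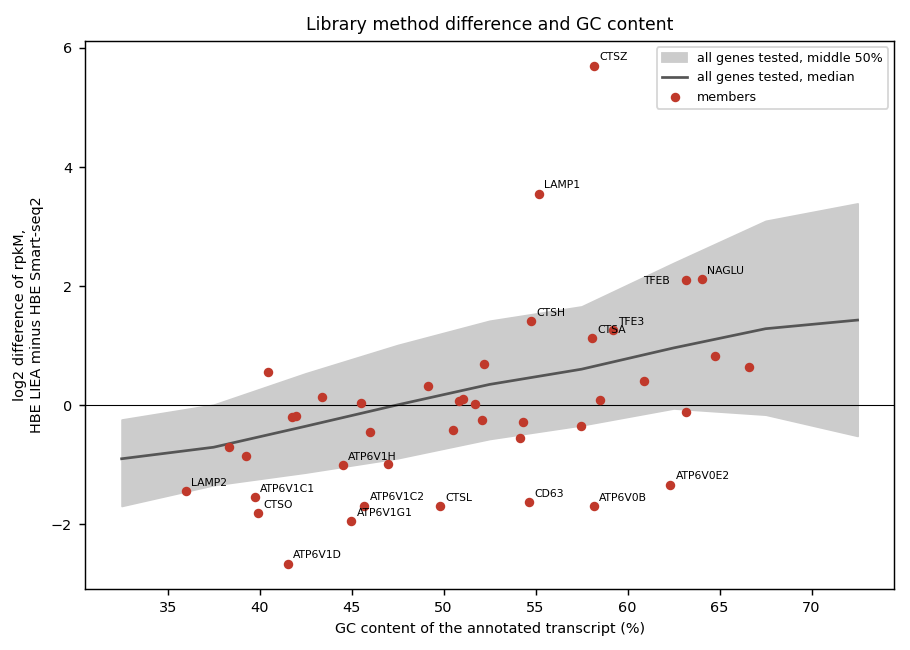
Log2 difference of rpkM, HBE LIEA minus HBE Smart-seq2 (vertical axis), against the GC content of the annotated transcript in percent (horizontal axis); red points are the 42 genes, named where the difference was 2-fold or more, and the line and grey band are the median and middle 50% of all genes in GC bins. The medians of all genes rose from -0.70 at 35 to 40% to 0.96 at 60 to 65%, and CTSZ and LAMP1 lay far above the band.

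Other genes of the pathway were taken from 6 lists of 118 genes, of which 117 were listed. Between the cell lines, 16 of 111 with enough reads were called higher in A549 (14.4%) and 15 lower (13.5%), with a median of 0.07, against 18.6% and 20.3% of all genes. Both shares lay below those of all genes. Some of these calls, among them the lower calls of cathepsin inhibitors described further below, came from genes that reached the minimum of reads through a single library. Among 34 other hydrolases and cofactors, 8 were called higher (23.5%) and 3 lower (8.82%). GALNS, a sulfatase of glycosaminoglycan breakdown, was higher by 2.61, and IDS and HGSNAT, of the same route, by 1.72 and 1.88. ASAH1, the acid ceramidase, was higher by 2.13, the gamma-glutamyl hydrolase GGH by 1.84 and the asparaginyl endopeptidase LGMN, which cuts cathepsin precursors, by 1.42. GALC, the galactocerebrosidase, was listed in A549 LIEA alone, at log2 rpkM 3.45, and reached the minimum of reads through that library. GM2A, the activator that works with HEXA, was lower by -2.54, with 244 reads in A549 LIEA, 1577 in HBE LIEA and 1837 in HBE Smart-seq2. MANBA and AGA were lower by -1.09 and -1.14. Against HBE Smart-seq2, IDS, ASAH1 and GGH were less than 2-fold higher in A549 LIEA and MANBA less than 2-fold lower. GALNS, HGSNAT and LGMN stayed more than 2-fold higher, and GM2A and AGA more than 2-fold lower.

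Of 13 partners of the V-ATPase, 1 was called higher in A549 (7.69%), against 18.6% of all genes, and 2 lower (15.4%), against 20.3%. The other 10 lay within 2-fold. NCOA7, which binds the pump through its TLDc domain, was higher in A549 by 2.36, and OXR1 and TLDC1, of the same domain family, were lower by -1.42 and -1.37. None of 16 genes for the delivery of enzymes to lysosomes was called higher, against 18.6% of all genes. The sorting receptor SORT1 (-1.34) and the adaptor subunit AP1B1 (-1.57) were lower (12.5%), against 20.3%. Of 19 genes of the TFEB family and the lysosomal mTORC1 platform with enough reads, RRAGB (2.25), LAMTOR2 (1.73) and FLCN (1.18) were higher. These were 15.8%, near the 18.6% of all genes, and RRAGB reached the minimum of reads through A549. None was lower, against 20.3%. Of 19 lysosomal membrane proteins, CLN3 (1.59) and SLC38A9 (1.32) were higher (10.5%), against 18.6% of all genes. ABCB9 (-1.86), SLC36A1 (-1.10) and MFSD8, just past 2-fold, were lower (15.8%), against 20.3%. Against HBE Smart-seq2, SLC38A9 was lower in A549 LIEA (5.47 against 7.30 rpkM), and AP1B1 differed little (31.9 against 32.1 rpkM). SORT1, SLC36A1, ABCB9 and RRAGB lay within 2-fold of that library. NCOA7, LAMTOR2, FLCN, CLN3, OXR1, TLDC1 and MFSD8 kept their direction there by more than 2-fold. Between the methods, 26 of the 110 pathway genes with enough reads were called higher in HBE LIEA (23.6%) and 20 lower (18.2%), near the 28.1% and 21.6% of all genes.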

How the data were processed

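PolyA+ mRNA of 3 libraries was quantified, with 1 library per group. The authors mapped LIEA reads (longer than 42 nt, Phred score over 10) and Smart-seq2 reads to RefSeq-RNA with FANSe2, merged splice variants and deposited log2 rpkM per gene, without a pseudocount and without genes that have no reads. The build given in the submitters' processing notes is hg19 (GRCh37). How reads matching several genes were assigned, and whether strand was used, is not given in the sources used here.

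The total and the reads of each gene were worked out as the whole numbers that give the deposited values (100% of 18856 genes, to within 1e-06 reads or 5e-09 of the reads). A gene's reads and length share an unknown whole factor, chosen from 1 to 12 by the transcript lengths of GENCODE release 44 on GRCh37. It was above 1 for 1363 genes, among them ATP6V1G1, GLB1 and TFEB. A wrong factor would change reads and intervals but no rpkM. The recovered reads sum to 98.3 to 98.5% of the totals, and 4 rows with repeated names were left out per library. The recovery was tested on simulated data.

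Genes with at least 20 reads over both libraries entered a comparison. An unlisted gene was set to 3 reads, differences of 2-fold or more were called, and intervals are exact (Clopper-Pearson, conditional on both counts). Values in every library are given for genes called in either comparison, the 5 highest in each library, TFEB, TFE3 and unlisted genes. The members and gene lists were chosen with earlier results of these data known. RefSeq promoter windows matched 34 of 51 symbols. Computations ran under Python 3.11.15 with scipy 1.17.1, numpy 2.4.6 and pandas 2.3.3, and plots with matplotlib 3.10.9. Alternatives were other scalings (centring, TPM), a pseudocount of 1, no minimum or 200 reads, and other fold limits.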

Additional observations from a re-analysis of the deposited data

How the results depend on the processing

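No gene called in a comparison changed direction under the scalings or the pseudocount, but differences near 0 changed sign, among them CTSD (0.08 to -0.08 under TPM), CTSA (0.02 to -0.13 under TPM) and CTSZ (-0.07 to 0.09 after centring) between the cell lines. Of 38 summary values under these alternatives, 32 stayed within the range set for an equal result and 6 moved. With a limit of 3-fold, 7 genes were called higher and 2 lower in A549 LIEA than HBE LIEA, and 4 higher and 7 lower in HBE LIEA than HBE Smart-seq2. Requiring 2-fold beyond counting error left 3 genes lower in A549 (ATP6V0E2, LAMP1 and CTSH) and 9 higher, without ATP6V1E1, ATP6V1E2 and HEXA. The shares of all genes at these limits are not given here, so these counts cannot be set against them. Without a minimum of reads, 11 genes were called higher in HBE LIEA than HBE Smart-seq2, and the share of all genes is not given there either. These 6 follow from a stricter limit or from more genes counted. Of 261 differences of single genes under other scalings and the pseudocount, 45 moved beyond their counting interval. The median difference of the members between the methods was -0.30 to 0.03 (0.01 under TPM, 0.03 without a minimum of reads), so it had no stable direction. For all genes that median was 0.25 under TPM and 0.11 without a minimum of reads. The median difference of the members between the cell lines was 0.05 to 0.37. With log2(rpkM + 1), CTSF differed by 5.65 and CTSS by 2.54 between the cell lines, and the calls of ATP6V1E2 (0.74), CTSO (-0.65) and ATP6V1H (-0.95) were lost. Under TPM those of HEXA (0.99) and ATP6V1H (-0.81) were lost. Genes with few reads in HBE, such as CTSF, CTSK, CTSS, ATP6V1B1 and ATP6V1E2, have wide intervals. No paired analysis was possible because each group held 1 library, and for the same reason no replicate could be left out.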

Other observations

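The inhibitors of cathepsins, listed as 13 cystatins and serpins, held 10 genes with enough reads. Of these, 2 were called higher in A549 LIEA than HBE LIEA, against 18.6% of all genes, and 5 lower, against 20.3%. The median log2 difference was -1.84. All 5 called lower (CSTA, CST6, SERPINB3, SERPINB4 and SERPINB13) reached the minimum of reads through HBE LIEA. CST1, called higher, reached it through A549 LIEA. These calls followed largely from passing the minimum, so the counts and the median cannot show a direction of the list. CST3, cystatin C, the main secreted inhibitor of cysteine cathepsins, had 887 reads in A549 LIEA, 296 in HBE LIEA and 69 in HBE Smart-seq2, a difference of 1.73 between the cell lines. CST1, a salivary-type cystatin, was listed in A549 LIEA alone, at log2 rpkM 4.25. CSTA, the cytosolic stefin A of squamous epithelia, had 5 reads in A549 LIEA, 124 in HBE LIEA and 35 in HBE Smart-seq2, a difference of -4.48. The related stefin CSTB differed by 0.27.

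SERPINB3, SERPINB4 and SERPINB13, squamous serpins of the same list, were not listed in A549 LIEA. SERPINB3 had 209 reads in HBE LIEA and 2409 in HBE Smart-seq2, SERPINB4 had 83 and 1345, and SERPINB13 had 141 and 611. CST6, cystatin M of the epidermis, was not listed in A549 LIEA either and had 23 and 34 reads. With 3 reads in place of 0 in A549 LIEA, the log2 difference of A549 LIEA minus HBE LIEA was -5.97 for SERPINB3, -5.41 for SERPINB13, -4.64 for SERPINB4 and -2.79 for CST6. The upper 95% counting limits of these differences were -5.66, -5.09, -4.31 and -2.37, in the same order. The basal airway markers moved the same way, with 1723 rpkM in HBE LIEA and 9.42 in A549 LIEA, and their part in these differences was not tested.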
